A study of Mus musculus with 8 samples.

Results

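The transcripts of 10 genes that make up the KEAP1-NRF2 axis were examined in mouse kidney: Keap1, Cul3 and Rbx1 of the ubiquitin ligase, the transcription factor genes Nfe2l2 (which encodes NRF2) and Nfe2l1, the small MAF genes Mafg, Maff and Mafk, the repressor gene Bach1, and Sqstm1. They were chosen by name from the known parts of the pathway, and all 10 were found among the 18217 genes that could be named on the array. Kidney RNA from 8 mice aged 8 weeks, of mixed 129Sv/J and C57BL/6J background, was labelled with Cy3 and hybridised to Agilent mouse arrays, with 1 mouse on each array. The 4 NEKO mice were Keap1-/-::Nrf2Flox/Flox::K5-Cre. The 4 littermate controls were all Keap1 heterozygotes, of which 3 were K1Cre (Keap1+/-::Nrf2Flox/Flox::K5-Cre) and 1 female was K1 (Keap1+/-::Nrf2Flox/Flox, with no Cre). Each group held 2 females and 2 males. All 8 mice were therefore homozygous for the floxed Nrf2 allele, and the comparison sets mice with no intact Keap1 allele against mice that still carry it on 1 chromosome, not against wild-type mice. K5-Cre is driven by the keratin 5 promoter, which is active in squamous epithelium. Nothing in the labels separates cell types, so a fall in a transcript can come from fewer cells of a type or from less RNA in each cell, and these cannot be told apart in RNA of the organ.

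NRF2 is a cap-n-collar transcription factor that is made continuously and destroyed continuously. KEAP1 holds it, and also the ligase scaffold CUL3 with its RING protein RBX1, so that NRF2 is ubiquitinated and degraded by the proteasome. When KEAP1 is lost or its reactive cysteines are modified, NRF2 accumulates, pairs with a small MAF protein and binds antioxidant response elements in front of detoxification and antioxidant genes. BACH1 pairs with the same small MAF proteins at the same kind of element and represses. Sequestosome 1, the product of Sqstm1, is an autophagy receptor that can carry KEAP1 to degradation. Nfe2l1 encodes NRF1, a relative of NRF2 known for driving proteasome genes. Most of this control acts on proteins, which the arrays do not measure.

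The deposited processed signal was taken as log2 and each array's 75th percentile was subtracted, and this value is called the log2 level below. Levels of different genes come from different probes and were not set against each other. A summed log2 level of a list adds the signals of its genes before log2 is taken. The brightest probes of the list therefore weigh most in it. All 13 probes of the 10 genes were well above background on all 8 arrays, and no spot of theirs was left out. The genotypes were set against each other in limma, allowing for sex, and p-values were adjusted by the Benjamini-Hochberg method over 19593 genes and unnamed transcripts. An adjusted p under 0.05 made a call. Females shared 1 slide and males another, which means that an effect of slide and one of sex cannot be told apart. The share of probes well above background lay between 61.7% and 65.7% per array, and the number of arrays limits the precision of everything that follows. The labels name each sample by mouse, so the spread given is that between animals. Proximal tubule markers, which check the labelled tissue, were all tested (7 of 7) with a median log2 difference of 0.024 between NEKO and control kidneys, and the podocyte, thick ascending limb and distal tubule markers were detected as well.

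Among the 10 genes, Keap1 was the only one called, and its level fell in NEKO kidneys; 0 were called higher. Against this 1 of 10, 0.28% of the 13570 named genes tested were called in either direction, 0.169% lower and 0.111% higher. The 1 call was that of the gene in which the genotypes were bred to differ, so it does not mark the axis as changed. The other 9 were not called, and their fitted log2 differences ran from -0.46 for Nfe2l2 to 0.30 for Sqstm1. An unadjusted p under 0.05 was reached by 3 of the 10 (Keap1, Mafg and Sqstm1), where 18.3% of all named genes reached it. Of these, 2 of the 10 (Mafg and Sqstm1) were on the higher side, beside 8.14% of named genes, and 1 of the 10 (Keap1) on the lower side, beside 10.2%. The median log2 difference was 0.043 over the 10 genes and -0.020 over all named genes. The median size of the difference, without its sign, was 0.24 over the 10 genes against 0.14 over all named genes.

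**Figure D1:**
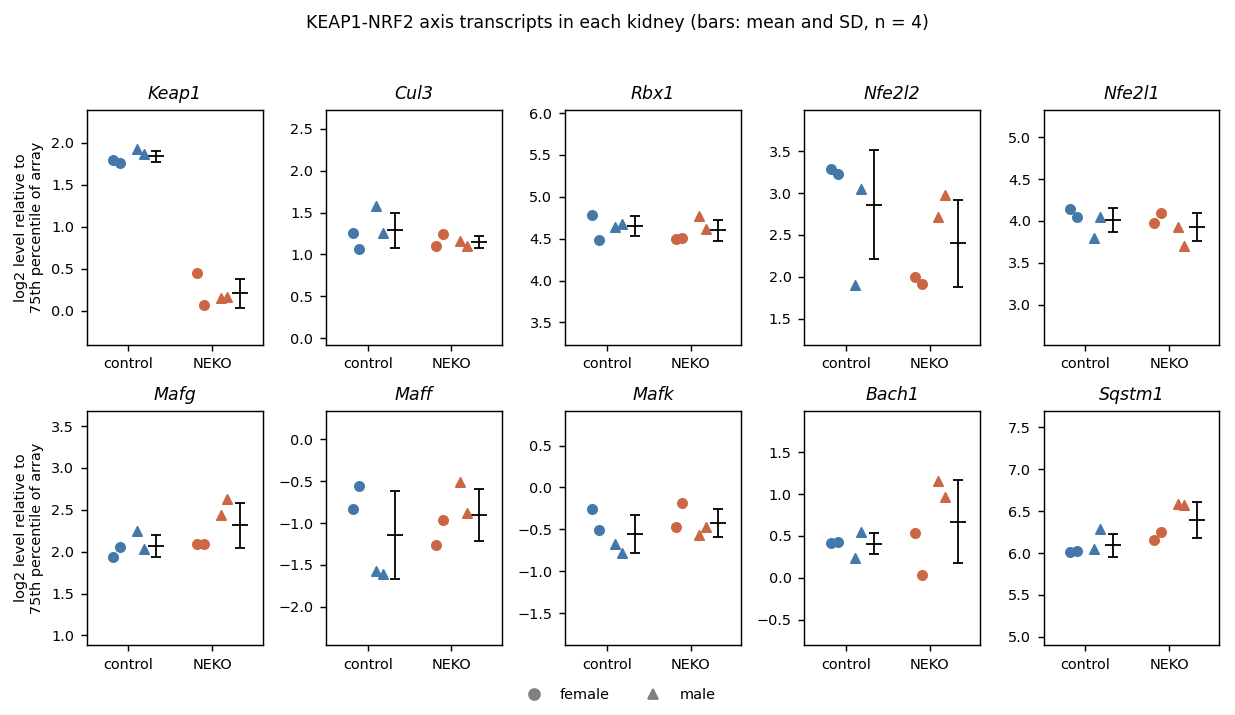
Log2 level of each of the 10 transcripts (vertical axis, each panel spanning the same range of log2 units) in the 4 control and 4 NEKO kidneys, with females as circles, males as triangles, and the mean and SD of each group as a bar. Keap1 is the only panel in which the groups do not overlap, and Nfe2l2 and Maff have the widest spread among controls.

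Keap1 encodes the sensor and substrate adaptor of the ligase, and its transcript is the check on the labels. Its log2 level in the controls was 1.80 in the K1 female (replicate 1), 1.77 in the K1Cre female (replicate 8), and 1.92 and 1.87 in the K1Cre males (replicates 4 and 7). In NEKO kidneys it was 0.45 and 0.060 in the females (replicates 2 and 3) and 0.14 and 0.16 in the males (replicates 5 and 6). Every NEKO mouse lay well below every control mouse, and the highest NEKO value was that of a female. The means were 0.20 ± 0.17 (SD, n = 4) and 1.84 ± 0.070 (SD, n = 4), and the difference of -1.63 (standard error 0.10, adjusted p = 0.0046 from limma) left 32.2% of the control signal in NEKO kidneys, with a 95% interval from 27.2% to 38.1%. In size the difference exceeded that of 99.0% of named genes. The call was lost under the methods' test with adjustment (adjusted p = 0.14), and no other alternative ended it. By the exact two-sided permutation test p was 0.0286, the smallest that 4 mice against 4 can give, and the groups did not overlap in 1 of the 10 genes, beside 9.58% of named genes in either direction and 5.09% with NEKO lower. Within the females 34.7% of the control signal was left and within the males 29.9%. The probe gave a processed signal between 920 and 1398 in NEKO kidneys, well above background on all 4 arrays, against 3388 to 3845 in the controls. Which part of Keap1 the null allele removes, and where this probe lies in the transcript, are not given in the sources used here, so the remaining signal cannot be assigned to an intact or a truncated transcript.

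Cul3 and Rbx1, the scaffold and the RING subunit that KEAP1 joins, did not pass the test. Cul3 lay between 1.07 and 1.58 in the controls and between 1.10 and 1.25 in NEKO kidneys, so that all 4 NEKO values fell inside the control range. Its log2 difference was -0.14 (standard error 0.11, adjusted p = 0.53 from limma), and the 95% interval reached from 75.7% to 109.0% of the control level. The difference was -0.046 without control replicate 4 and -0.21 without control replicate 8. Rbx1 lay between 4.49 and 4.78 in the controls and between 4.50 and 4.77 in NEKO kidneys. Its difference of -0.048 (standard error 0.091, adjusted p = 0.80 from limma) had an interval from 83.3% to 112.3% of the control level. Rbx1 was read by 3 probes that did not share a direction, with differences of -0.048, 0.045 and -0.13, none of them called. Across the 8 arrays the brightest Rbx1 probe followed the second (Pearson r = 0.75) but not the third (r = -0.11), a description over 8 arrays.

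Nfe2l2 was the most variable of the 10 transcripts between mice of the same group, with the largest SD in both groups. In the controls its log2 level was 3.28 and 3.22 in the females, 3.05 in the male of replicate 7 and 1.90 in the male of replicate 4. In NEKO kidneys it was 2.00 and 1.92 in the females and 2.71 and 2.97 in the males. The groups overlapped: the control male of replicate 4 had the lowest value of all 8 mice, next to the 2 NEKO females, and the other 3 controls had the highest. The means were 2.86 ± 0.65 (SD, n = 4) in the controls and 2.40 ± 0.52 (SD, n = 4) in NEKO mice. The difference of -0.46 (standard error 0.39, adjusted p = 0.55 from limma) did not pass the test, and its 95% interval, from 38.4% to 137.3% of the control level, was the widest of the 10 on the log2 scale. Without control replicate 4 the difference was -0.86 (adjusted p = 0.25 from limma), and without any other single mouse it lay between -0.68 and -0.28. Within the females NEKO mice had 40.8% of the control level and within the males 129.2%.

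The low values of Nfe2l2 did not depend on its probe. The array carries 2 probes for it, and the second read 2.83 and 2.82 in the control females, 1.36 and 2.56 in the control males of replicates 4 and 7, 1.57 and 1.56 in the NEKO females, and 2.30 and 2.58 in the NEKO males. The same 3 mice were low with both probes, and over the 8 arrays the probes had a Pearson r of 0.996, a description of 8 arrays that share their RNA. The second probe differed by -0.39 between the groups (standard error 0.40, adjusted p = 0.64 from limma over all probes). Neither the labels nor the methods say whether these probes lie in the floxed part of the gene, and recombination of the floxed allele in kidney was not measured.

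**Figure D2:**
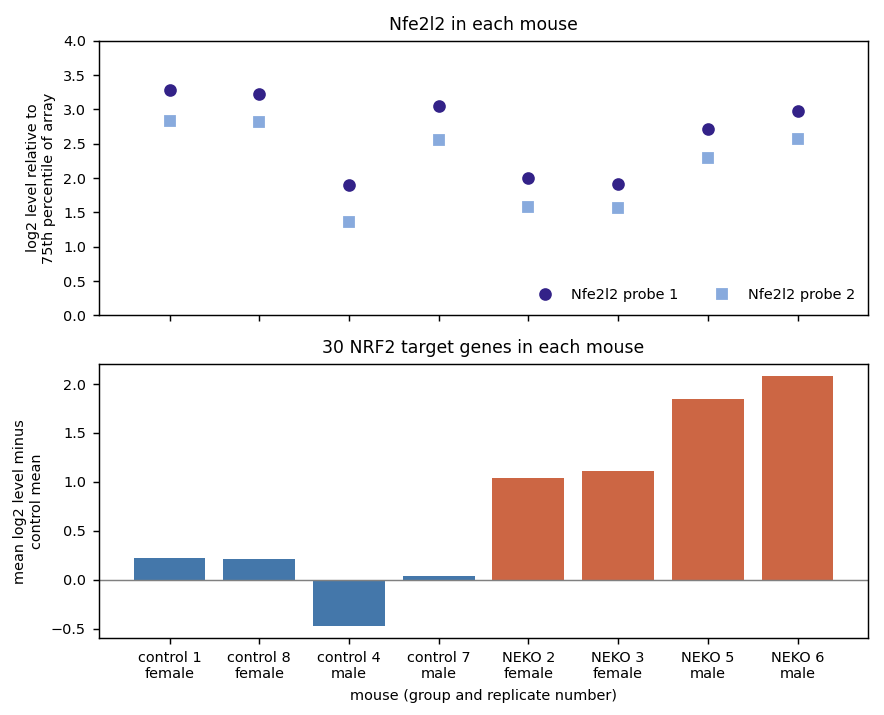
Upper panel, log2 level of Nfe2l2 in each of the 8 mice by its 2 probes; lower panel, mean log2 level of the 30 tested NRF2 target genes in the same mouse, less the control mean of each gene. Both probes are lowest in control replicate 4 and in NEKO replicates 2 and 3, while the target genes are above the control mean in all 4 NEKO mice.

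The genes that NRF2 is known to activate were set beside the Nfe2l2 level of each mouse. Relative to the control mean of each gene, the mean over 30 tested target genes was 1.04 and 1.11 on the log2 scale in the NEKO females, whose Nfe2l2 levels were low, and 1.84 and 2.08 in the NEKO males. In the controls it was 0.22 and 0.21 in the females, 0.038 in the male of replicate 7 and -0.47 in the male of replicate 4. The NEKO females thus lay above every control with less Nfe2l2 transcript than every control but control replicate 4. In the controls the order of the target means was that of the Nfe2l2 levels. Among NEKO mice the males were highest in both, while of the females replicate 3 had the lower Nfe2l2 level and the higher target mean. Nqo1, a quinone reductase used as the prototype target, read 3.89 and 4.41 in the NEKO females and 5.25 and 5.45 in the NEKO males. It read 2.45 and 2.46 in the control females, 2.35 in the male of replicate 7 and 1.24 in the male of replicate 4. Its log2 difference of 2.62 (standard error 0.43, adjusted p = 0.065 from limma) did not make a call. It made one with normexp background correction (adjusted p = 0.044 from limma) and when averaged over the sexes in the interaction model (adjusted p = 0.0095 from limma).

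Keratin 5 drives the Cre of 7 of these mice, and its transcript was measured in the same RNA. Krt5 was detected on every array, at -1.20 and -1.56 in the control females, -2.85 and -1.78 in the control males, -1.03 and 0.36 in the NEKO females and 0.55 and 0.13 in the NEKO males. Its log2 difference was 1.85 (standard error 0.47, adjusted p = 0.14 from limma). Over the whole list of 6 urothelium and squamous epithelium markers, all tested and all well above background, 0 were called, 6 had a difference above 0, and their summed log2 level ran from -0.24 to 1.32 in the controls and from 1.14 to 2.61 in NEKO kidneys. The lowest sum was that of control replicate 4, in which Nfe2l2 was also lowest. The NEKO females, whose Nfe2l2 levels were nearly as low, had sums of 1.14 and 1.61. The part of these cells in the level of Nfe2l2 was not tested.

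Nfe2l1, the gene of NRF1, did not pass the test. Its log2 level was 4.14, 4.05, 3.80 and 4.05 in control replicates 1, 8, 4 and 7, and 3.98, 4.10, 3.93 and 3.71 in NEKO replicates 2, 3, 5 and 6. The groups overlapped throughout, with a difference of -0.083 (standard error 0.092, adjusted p = 0.65 from limma) and an interval from 81.3% to 109.7% of the control level. The difference was -0.060 in the females and -0.11 in the males. Of 31 proteasome subunit genes, the set that NRF1 is known to drive, 0 were called, 9 had a difference above 0 and the median was -0.055. Their differences ran from -0.23 for Psma6 to 0.091 for Psmd3. At an unadjusted p under 0.05 limma gave 4 of them lower and 0 higher, where 10.2% of all named genes were lower and 8.14% higher. Among the 4 tested genes that process NRF1 after translation, 0 were called and 0 reached an unadjusted p under 0.05, with differences from -0.076 for Ngly1, the deglycosylating enzyme, to 0.099 for Vcp, the ATPase that draws NRF1 out of the endoplasmic reticulum.

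**Figure D3:**
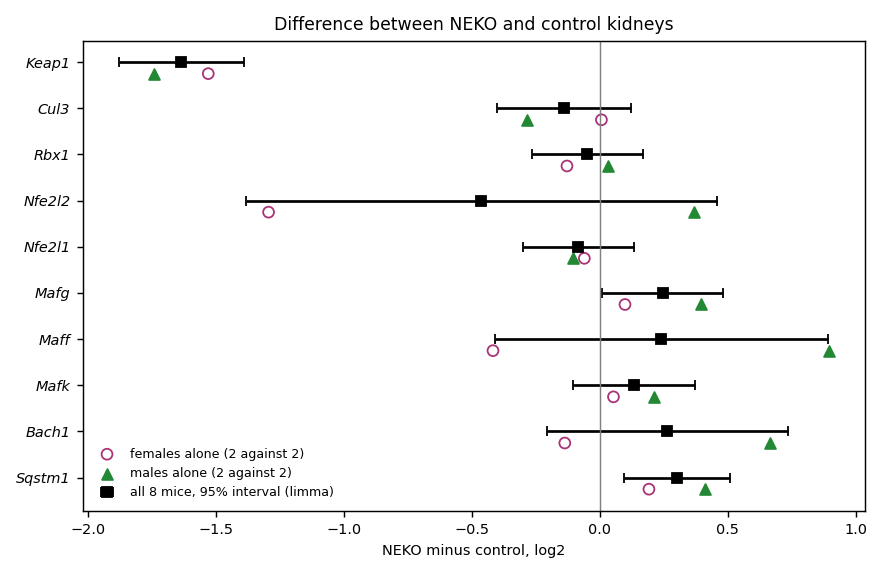
NEKO minus control difference on the log2 scale for each of the 10 transcripts, with the 95% interval from limma over all 8 mice (squares) and the difference within the 2 sexes (open circles for females, triangles for males). The interval of Keap1 lies far below 0, those of Mafg and Sqstm1 lie just above it before adjustment, and Nfe2l2, Maff and Bach1 have the widest gaps between the sexes.

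The small MAF genes encode partners that bind DNA but lack an activation domain, and none of the 3 was called. Mafg had log2 levels of 1.94 and 2.05 in the control females, 2.25 and 2.03 in the control males, 2.09 and 2.10 in the NEKO females and 2.44 and 2.63 in the NEKO males. The NEKO males were above every other mouse. Both NEKO females were above both control females, but below the control male of replicate 4. Mafg thus separated the groups in the same direction within both sexes, as did 18.2% of all named genes. The difference was 0.25 (standard error 0.10), with an interval from 100.7% to 139.8% of the control level, an unadjusted p of 0.043 and an adjusted p of 0.26 from limma. Mafk lay between -0.78 and -0.26 in the controls and between -0.56 and -0.19 in NEKO kidneys, so that the groups overlapped. Its difference was 0.13 (standard error 0.10, adjusted p = 0.50 from limma), with an interval from 93.0% to 129.3% of the control level.

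Maff separated the groups in opposite directions within the sexes. Its log2 level was -0.84 and -0.56 in the control females and -1.26 and -0.97 in the NEKO females, so both NEKO females were below both controls. In the males it was -1.57 and -1.61 in the controls and -0.51 and -0.88 in NEKO mice, so both NEKO males were above both controls. The difference was -0.42 in the females and 0.90 in the males, and over all 8 mice 0.24 (standard error 0.28, adjusted p = 0.66 from limma). With 1 mouse left out it ran from 0.033, without NEKO replicate 5, to 0.43, without NEKO replicate 2. Male effect less female effect was 1.31 (standard error 0.26, unadjusted p = 0.0020), which did not pass after adjustment over all genes (adjusted p = 0.14 from limma's interaction test). Separation in opposite directions within the sexes was seen in 1 of the 10 genes and in 5.9% of all named genes.

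The 4 of the 10 genes with an antioxidant response element core in front of their start were Nfe2l2 and the 3 small MAF genes, and these sequences are shown because the element is the one that NRF2 and small MAF proteins bind together. The core was searched as TGACNNNGC on both strands in the 250 bases before each RefSeq start (build GRCm38.p6), with no other motif searched. All 10 genes matched, with 16 starts in all, and the core was found before 4 of the 16. Of 32851 windows of the same length over all genes, 10.2% held it, and 11.5% of genes had it before at least 1 start. The match is a description of these letters and not a binding site. Capitals mark the core in each stretch, which is written 5′ to 3′ on the strand of the gene.

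Nfe2l2, chr2:75704664-75704913, minus strand, core beginning 240 bases before the start: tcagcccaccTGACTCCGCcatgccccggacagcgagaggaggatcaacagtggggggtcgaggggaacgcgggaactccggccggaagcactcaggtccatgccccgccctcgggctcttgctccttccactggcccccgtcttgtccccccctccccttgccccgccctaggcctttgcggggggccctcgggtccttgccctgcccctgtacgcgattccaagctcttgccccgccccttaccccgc
Maff, chr15:79346371-79346620, plus strand, core beginning 112 bases before the start: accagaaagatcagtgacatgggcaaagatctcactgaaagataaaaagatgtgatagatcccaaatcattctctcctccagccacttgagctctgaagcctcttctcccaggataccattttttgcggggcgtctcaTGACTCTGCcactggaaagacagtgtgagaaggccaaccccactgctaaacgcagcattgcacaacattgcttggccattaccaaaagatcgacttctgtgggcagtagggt
Mafk, chr5:139791286-139791535, plus strand, core on the opposite strand beginning 13 bases before the start: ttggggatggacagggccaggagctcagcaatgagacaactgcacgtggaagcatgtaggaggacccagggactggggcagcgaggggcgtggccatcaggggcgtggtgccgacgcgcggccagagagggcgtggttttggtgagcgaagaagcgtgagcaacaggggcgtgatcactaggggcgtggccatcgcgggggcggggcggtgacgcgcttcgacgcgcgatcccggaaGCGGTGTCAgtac
Mafg, chr11:120633751-120633779, minus strand, core on the opposite strand beginning 222 bases before the start, inside the annotated span of the gene, shown with its flanks only: ctctgcaggaGCACGGTCAacccggcgag

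Read beside these sequences, the fitted differences of the 4 genes went both ways, at -0.46 for Nfe2l2 and 0.25, 0.24 and 0.13 for Mafg, Maff and Mafk, and none was called. The 6 genes without the core in these windows were Keap1, Cul3, Rbx1, Nfe2l1, Bach1 and Sqstm1.

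Bach1, the repressor that shares the small MAF partners, was not called. Its log2 level was 0.41 and 0.43 in the control females and 0.24 and 0.55 in the control males, a narrow range. In NEKO kidneys it was 0.54 and 0.034 in the females and 1.15 and 0.96 in the males, so that the males were the highest of all mice and 1 female the lowest. The difference of 0.26 (standard error 0.20, adjusted p = 0.50 from limma) had an interval from 86.6% to 166.5% of the control level. Within the males NEKO mice had 158.5% of the control level and within the females 91.0%. Male effect less female effect was 0.80 (standard error 0.28, unadjusted p = 0.027, adjusted p = 0.37 from limma's interaction test). The difference was 0.44 without NEKO replicate 3, 0.12 without control replicate 4 and 0.15 without NEKO replicate 5.

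Sqstm1 had the smallest unadjusted p after Keap1. Its log2 level was 6.01 and 6.03 in the control females, 6.04 and 6.29 in the control males, 6.16 and 6.26 in the NEKO females and 6.59 and 6.57 in the NEKO males. All NEKO mice were above 3 of the 4 controls, but the control male of replicate 7 lay above both NEKO females. Within each sex both NEKO mice were above both controls, a separation that 18.2% of all named genes showed. The difference was 0.30 (standard error 0.088), or 123.3% of the control level with an interval from 106.8% to 142.4%. The unadjusted p was 0.011 and the adjusted p 0.17 from limma, and the exact two-sided permutation test gave p = 0.086. Other autophagy receptors and their partners, 10 of which were tested, gave 0 calls and a median difference of -0.021, from -0.26 for Map1lc3a to 0.24 for Calcoco1, with 1 higher and 1 lower at an unadjusted p under 0.05. Sqstm1 therefore had a larger difference than any tested gene of that list.

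In 3 of the 10 genes (Nfe2l2, Maff and Bach1) the effect of genotype differed between the sexes at an unadjusted p under 0.05, where 11.1% of all named genes reached it, and in 0 of the 10 it did so after adjustment, beside 0.0147% of named genes. For Nfe2l2 the male effect less the female effect was 1.66 (standard error 0.49, unadjusted p = 0.014, adjusted p = 0.29 from limma), and it was 1.09 without control replicate 4. The male mean of Nfe2l2 less the female mean was -0.78 in the controls, where replicate 4 is 1 of the 2 males, and 0.88 in NEKO mice. In Keap1 the gap between the sexes was small, with an effect in males less that in females of -0.21 (standard error 0.20, adjusted p = 0.79 from limma). The mean log2 level in NEKO females and males was 2.09 and 2.53 for Mafg, 0.29 and 1.06 for Bach1 and 6.21 and 6.58 for Sqstm1, each a mean of 2 mice. In control females and males it was 1.99 and 2.14 for Mafg, 0.42 and 0.39 for Bach1 and 6.02 and 6.17 for Sqstm1. For Mafg and Sqstm1 limma's interaction test gave an unadjusted p of 0.15 and 0.23.

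The marker lists of several other cell types differed in level between NEKO and control mice, most of them further in the males. The 3 tested neutrophil markers had a summed log2 level of 2.74 and 0.68 in the NEKO males, -1.50 and -0.87 in the NEKO females, and -2.16 to -0.92 in the controls. The 3 did not move alike, with differences from 0.047 to 1.81. Of them 2 were higher at an unadjusted p under 0.05 in limma, beside 8.14% of named genes. In 3 of the 4 control arrays S100a8, which is abundant in neutrophils, was not well above background. The 4 tested lymphocyte markers summed to -1.45 and -1.71 in the NEKO males, against -2.53 to -1.98 in the other 6 mice. The 5 tested macrophage markers summed to 1.80 and 2.70 in the NEKO males, around the control range of 2.03 to 2.40. Their mean log2 level, each gene less its control mean, was 0.074 and 1.02 there, against -0.22 to 0.39 in the controls. The 4 fibroblast markers summed to 4.01 and 4.80 in the NEKO males, against 3.13 and 3.42 in the control males, and the female sums of the groups lay between 3.61 and 4.12. In the other direction, the 5 intercalated cell markers summed to 4.48 and 4.54 in the NEKO females and 3.68 and 2.64 in the NEKO males, below all 4 controls (5.15 to 5.58). Their median difference was -0.90. The groups did not overlap in 2 of the 5, beside 9.58% of named genes in either direction and 5.09% with NEKO lower. The 3 distal convoluted tubule markers summed to 1.87 and 2.09 in the NEKO males against 2.79 to 3.37 in the controls. The NEKO females, at 2.82 and 3.35, were within that control range. The 4 thick ascending limb markers summed to 7.83 and 7.63 in the NEKO males against 8.21 to 8.46 in the controls. Here too the NEKO females, at 8.23 and 8.31, were within the control range. Principal cell, podocyte, endothelial and tubular injury lists had median differences of -0.15, 0.022, 0.17 and 0.054. The podocyte differences ran from -2.45 to 0.35, with sums of 3.42 to 6.87 in the controls and 2.29 to 3.44 in NEKO kidneys. The 6.87 was that of control replicate 4, and the other controls lay between 3.42 and 4.59. In control replicate 4 the median of these markers, each less its control mean, was -0.17. The tubular injury differences ran from -0.85 to 1.37. Of those 6 genes 2 were higher and 1 lower at an unadjusted p under 0.05 in limma, beside 8.14% and 10.2% of named genes. None of the genes of these lists was called between the groups. The part of such cells in the levels of Bach1, Maff, Mafg, Sqstm1 and Nfe2l2 was not tested.

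Genes that act around the axis were described from lists. Of the 6 genes of the beta-TrCP route, by which NRF2 is degraded without KEAP1, 0 were called and the median difference was 0.054, from -0.080 for Gsk3a to 0.083 for Skp1. Another list held 11 genes of the attachment of NEDD8 to cullins, its removal and the exchange of cullin adaptors. Of these 0 were called, with a median of -0.052 and a range from -0.17 for Senp8, a NEDD8 protease, to 0.11 for Ube2m, a NEDD8 conjugating enzyme. The groups did not overlap in 2 of the 11, beside 9.58% of named genes. Of 7 coactivators and antagonists of NRF2, 0 were called, from -0.15 for Crebbp to 0.18 for Rxra. In all 3 lists 0 genes reached an unadjusted p under 0.05 in limma. Of 8 tested genes whose proteins bind KEAP1 or NRF2, 0 were called and 1 in each direction reached an unadjusted p under 0.05. They ran from -0.74 (standard error 0.29, adjusted p = 0.24 from limma) for Cdkn1a, the cyclin-dependent kinase inhibitor, to 0.29 for Sesn2, a stress-induced sestrin. The related cap-n-collar factor gene Nfe2l3 (-0.33) was not called, and Nfe2 and Bach2 were not tested.

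**Figure D4:**
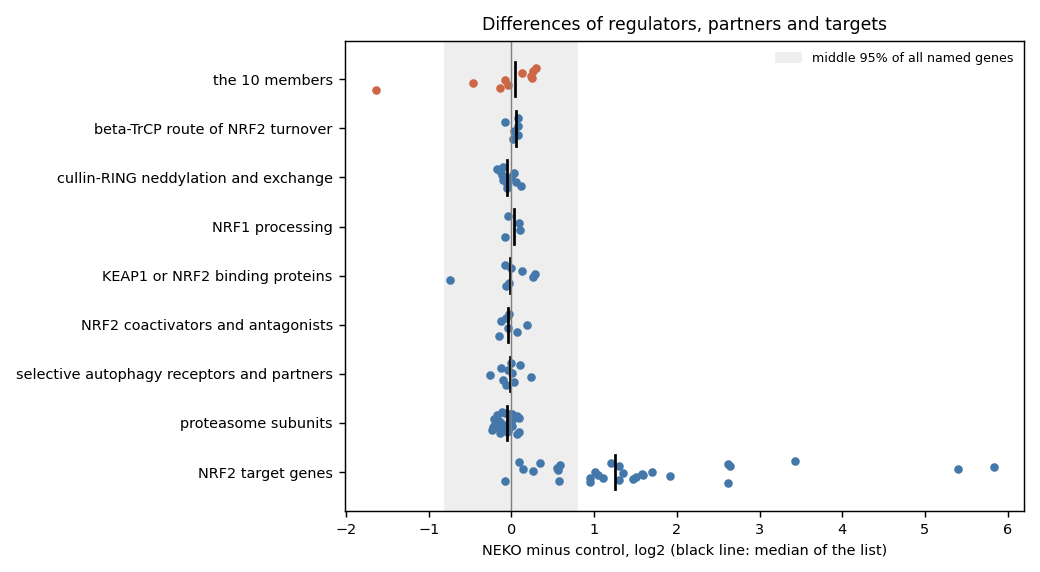
NEKO minus control difference on the log2 scale for each tested gene of the axis (orange) and of the lists around it (blue), with the median of each list as a black line and the middle 95% of all named genes, from -0.80 to 0.79, as a grey band. Apart from Keap1 the regulators lie inside the band, whereas the NRF2 target genes have a median of 1.25 and reach 5.83.

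The target genes stood apart from the regulators in size. Of 30 tested targets 29 had a difference above 0 and the median was 1.25, against 0.043 for the 10 genes of the axis and -0.020 for all named genes. In 18 of them the lowest NEKO value was above the highest control value, beside 4.49% of all named genes. Only 3 of the 30 were called, all of them higher, beside 0.111% of named genes: Gpx2, a glutathione peroxidase (5.40, adjusted p = 0.011), Txnrd1, a thioredoxin reductase (1.30, adjusted p = 0.049) and Gstp1, a glutathione S-transferase (1.57, adjusted p = 0.049, all from limma). The calls of Txnrd1 and Gstp1 were each lost in 13 of 21 alternatives and that of Gpx2 in 2, and with any single mouse left out between 0 and 2 targets were called (0 without control replicate 7). Other settings called more of the 30, with 17 averaged over the sexes in the interaction model, 9 with normexp, 7 with a trend and robust fit, 7 with array weights and 18 by the methods' test without adjustment. With adjustment that test called 0. The highest difference was that of Cbr3, a carbonyl reductase (5.83, adjusted p = 0.054 from limma), which made a call in 6 alternatives (1 of them without adjustment), and the lowest that of Hmox1, heme oxygenase 1 (-0.079, adjusted p = 0.82 from limma). The median difference over the list was 0.66 in the females and 1.77 in the males. The list holds genes known as NRF2 targets from earlier work, and it is no independent evidence of direction here, since it was written with results of these samples known.

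Over the 8 arrays, the named genes with the log2 levels most like those of Keap1 were Myh7 (Pearson r = 0.989), Apol9b (0.984), Polr3c (0.981), Stap1 (0.980) and Atp2b2 (0.980). Their NEKO minus control differences were -2.98, -1.46, -0.40, -2.08 and -1.76 in that order, and all but Polr3c were called. The genes most like Nfe2l2 were Ly6g6e (0.986), Ache (0.970), Tmem101 (0.961), Vsig2 (0.937) and Obsl1 (0.933). None of these 5 was called. Their signs follow from the choice, since genes picked for their correlation over these arrays share the pattern of the gene they were picked for. These are descriptions over 8 arrays, with the same RNA behind every gene.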

How the data were processed

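Kidney RNA of 8 mice was measured on 8 arrays of 1 Agilent design, and groups were taken from the sample titles. The authors deposited intensity values for each spot from Feature Extraction 10.7.3.1, with the processed signal already background-subtracted and detrended, beside raw medians of spot and local background. A second deposited table gave log2 values centred per probe, whose differences between arrays were recovered from the processed signal within 0.01 for 100% of values. Outlier spots were left out (73 to 172 of 43379 per array), spots of a probe were averaged, and the 75th percentile of non-control probes was subtracted from log2 processed signal. Kept probes were well above background on at least 4 arrays with values on at least 6, and the brightest of these stood for the gene. Names came from RefSeq accessions (26690 of 41174 probes matched; 13570 named genes and 6023 unnamed transcripts tested). Coordinates in the array files are on mm9 and are not printed.

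limma 3.58.1 under R 4.3.3 was fitted with genotype and sex, and a second model held their interaction. The procedure was tested on simulated data. The genes and lists were chosen with earlier results of these data known. Named are the 10 genes, the 5 with the highest correlation to Keap1 and to Nfe2l2, the called genes and both extremes of each list around the pathway (a list of related factors is not reported here), and Nqo1, which was added after its values were seen. The rule covered cell type marker lists too, but these are given by counts and by values of whole lists, with Krt5 and S100a8 by name. The alternatives covered background correction (normexp, offset 50, on the median signal), normalization, filters, probe choice, sex term, variance model, the test named in the methods, the deposited matrix and each mouse left out.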

Additional observations from a re-analysis of the deposited data

Results flagged for a closer look

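Among 32 groups of 4 mice looked at, 4 had a mouse far from the rest, by its gap to the nearest of the others divided by the range of the group. About 1 group in 20 would hold such a mouse by chance. In the controls Nfe2l2 was low in replicate 4 (0.8294), at 1.90 against 3.05 to 3.28, and Nqo1 was low in the same mouse (0.910), at 1.24 against 2.35 to 2.46. Control replicate 7 was high for Sqstm1 (0.869), at 6.29 against 6.01 to 6.04, and for Gstp1 (0.893), at 6.26 against 5.74 to 5.79. On the array of control replicate 4, 61.7% of probes were well above background, the lowest share of the 8, and 172 spots were outliers, the highest number. Both margins were small: NEKO replicate 6 had 61.9% of probes well above background, and control replicate 1 had 162 outlier spots. In control replicate 4 the mean over urothelium markers, each less its control mean, was the lowest of the controls (-0.75). So it was for fibroblast, distal convoluted tubule, tubular injury, thick ascending limb, intercalated, principal cell and endothelial markers (-0.55 to -0.17). It was the highest for podocyte (0.43), neutrophil (0.32) and proximal tubule (0.16) markers, and at neither end for macrophages and lymphocytes. The parts of array quality and cell mix in the low values of this mouse were not tested.

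Maff differed between the sexes in direction, every NEKO female lying below and every NEKO male above the controls of the same sex. The effect in males less that in females was 1.31, and the test of that difference did not pass over all genes (adjusted p = 0.14 from limma).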

How the results depend on the processing

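Of the 10 genes, 0 were called higher under all 22 alternatives, and Keap1 was called lower under 21 of 22. The exception was the methods' test with adjustment, with 0 called lower, where Keap1 differed by -1.63 with an adjusted p of 0.14; over its other alternatives the adjusted p of Keap1 from limma stayed under the threshold, up to 0.039 with a mouse left out. With each mouse left out Nfe2l2 ran from -0.86 to -0.28, Cul3 from -0.21 to -0.046, Nfe2l1 from -0.13 to -0.028, Mafk from 0.091 to 0.21, Maff from 0.033 to 0.43 and Bach1 from 0.12 to 0.44, none called. Mafg ran from 0.17 to 0.30 and Sqstm1 from 0.23 to 0.34, also without a call. Rbx1 ran from -0.095 to 0.026, above 0 without control replicate 1 (the mouse without Cre), and Hmox1 from -0.19 to 0.062, above 0 without control replicate 8. The interaction of sex and genotype was called in 0 of the 10 genes under 12 alternatives.

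Named genes called higher numbered 15, and lower 23. Instead there were 57 and 81 with normexp, 6 and 12 with detection on all 8 arrays, 9 and 14 with no sex term, 204 and 208 averaged over the sexes with an interaction, 34 and 42 with a trend and robust fit, 27 and 48 with array weights, 743 and 882 by the methods' test without adjustment and 0 and 1 with it, and 6 and 6 at an adjusted p under 0.01. With each mouse left out they ran from 8 to 19 and from 7 to 18, with at least 1 count under the main by over 1.5 times without control replicate 1, 4, 7 or 8 or NEKO replicate 5 or 6, and lowest in total without NEKO replicate 6 (8 and 7). The causes were not tested. No paired analysis was possible because the replicate numbers run over both groups and none is shared. The slide could not be a separate block because it is the same split as sex.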
